A study of Xenopus tropicalis with 12 samples.

Results

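The dorsal and ventral marginal zones are opposite sides of the equatorial ring of tissue that forms the mesoderm of the frog embryo. They are compared here in 4 of the 12 libraries of the study, 2 of the dorsal and 2 of the ventral marginal zone, which were chosen by their labelled region and paired by clutch. Xenopus tropicalis embryos at the early gastrula, Nieuwkoop and Faber stage 10 to 10.25, were cut by hand into 5 regions, namely the animal cap, the dorsal, lateral and ventral marginal zones and the vegetal mass. The labels give no mutation and no treatment. Each dorsal and ventral library holds poly(A)+ RNA of about 30 pooled explants of 1 region from 1 clutch. No single number of explants is given here for the lateral zone, which lies on both sides of the embryo. The lateral libraries of both clutches serve as the middle of the axis, and the animal cap and vegetal mass as the neighbouring tissue. Levels are given as TPM, a share of all transcripts that allows for transcript length, and differences as log2 fold changes of edgeR's fit to the expected counts, dorsal minus ventral, so that a positive value is higher dorsally.

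The dorsal marginal zone contains the Spemann organizer, the group of cells that sets up the body axis and, when moved to the ventral side, induces another axis. Organizer cells express a set of homeobox and forkhead transcription factors (TFs), several of them repressors, and secrete antagonists of BMP and Wnt signals. On the ventral side BMP and Wnt signals are received, and genes such as the ventx repressors, msx1 and evx1 are transcribed. The ventral and lateral parts later give blood, vessels, muscle of the trunk and tail and other posterior mesoderm, whereas the organizer gives the prechordal plate and notochord.

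The expected counts of the 4 libraries summed to between 14634582 and 29166548, and clutch 2 was the shallower of each pair. A gene of median length with 3 counts had 0.101 and 0.18 TPM in the dorsal libraries and 0.107 and 0.161 TPM in the ventral ones. Of 26550 gene models, 15727 had enough counts to be tested, and these include 915 of the 1197 TFs of the study's catalogue with a gene model. Of the 282 TFs not tested, 1 reached a mean of 1 TPM in either region and 55 had no count in any of the 4 libraries. The labelled regions were checked against their markers. The organizer gene gsc was highest in the dorsal and ventx1.1, evx1 and msx1 in the ventral libraries of the 3 zones, and the pan-mesodermal gene t was present on both sides at 551 and 617 TPM dorsally and 893 and 814 TPM ventrally. Neither t nor eomes, another mesodermal T-box gene, passed the threshold (adjusted p = 0.678 and 0.763 in edgeR's quasi-likelihood test). The clutch enters each test as a replicate block, and p-values measure only how far regional differences varied between these 2 clutches.

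In all, 69 TFs differed between the dorsal and ventral marginal zones at an adjusted p under 0.05. Expression was higher dorsally for 38 of them and higher ventrally for 31. This is 7.54% of the TFs tested, where 1.46% of all gene models tested passed, 1.02% being higher dorsally and 0.432% ventrally. The median absolute log2 fold change was 2.78 for the dorsal and 2.11 for the ventral TFs, and 0.18 for all gene models tested. All 69 TFs had the same sign in both clutches, as did 60% of all gene models tested. The call used these same libraries and favours large, equal and separate differences, so fold size, sign and overlap are given as a description. The TPM of the dorsal and ventral libraries did not overlap for 38 of 38 dorsal and 28 of 31 ventral TFs, against 18.7% of all gene models tested, and the 3 that overlapped were e2f1, prdm9 and id3. When the TPM had to differ 2-fold or more and reach a mean of 1 TPM in the higher region, 35 TFs were enriched dorsally and 26 ventrally, where 0.852% and 0.343% of all gene models met the same limits. Those called without reaching these limits were rarg, gata6 and pbx2 on the dorsal and ets2, id3, myc, e2f1 and prdm9 on the ventral side.

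These counts lean on the clutch in the model and on single libraries. Without the block 6 TFs passed, and their number dorsally and ventrally was 46 and 17 without dorsal replicate 1, 22 and 13 without dorsal replicate 2, 28 and 16 without ventral replicate 1, and 14 and 13 without ventral replicate 2. In each of these 4 fits 10 dorsal and 13 ventral TFs passed. The dorsal ones are gsc, otx2, crx, dmbx1, lhx5, foxd3, irx1, irx2, zic1 and zic2, and the ventral ones are msx1, evx1, tbx2, tbx3, id2, hes6.1, msgn1, klf17 and the ventx genes other than ventx2.1.

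**Figure D1:**
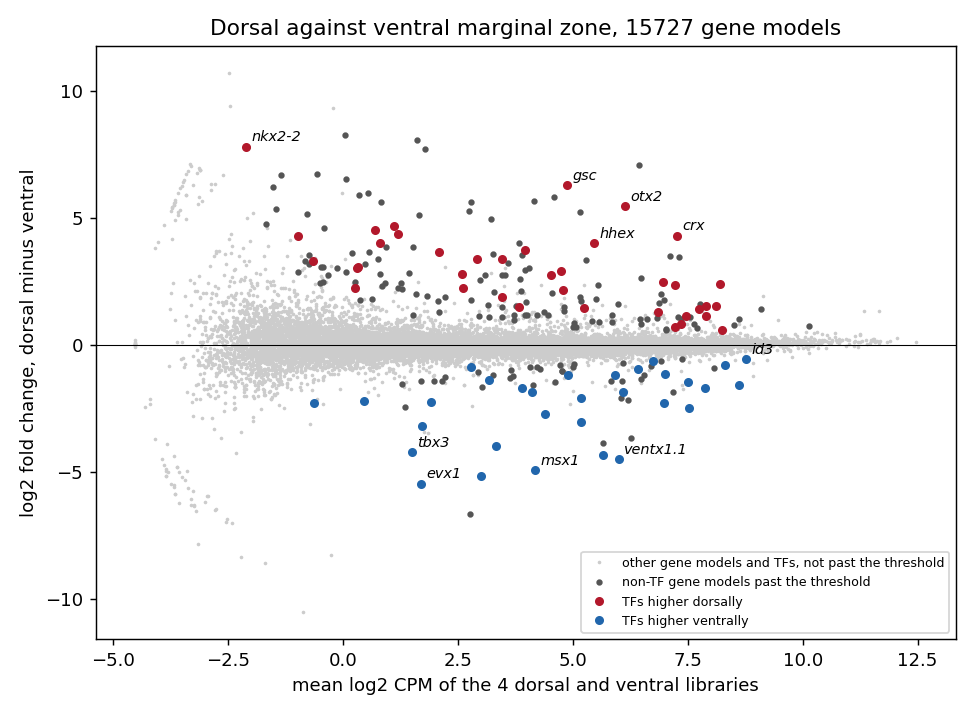
Log2 fold change (y axis, dorsal minus ventral marginal zone) against the mean log2 CPM of the 4 libraries (x axis) for 15727 gene models. Red and blue points are the 38 TFs higher dorsally and the 31 higher ventrally, dark grey points are the 160 other gene models past the threshold, and light grey points did not pass. The called TFs run from nkx2-2 at the low end to id3 at the high end among them, and some TFs without a call, such as sp5l, lie higher.

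Among the homeobox genes of the organizer, gsc (goosecoid, Xetrov90021259), a repressor that marks the organizer, had the steepest gradient. In clutches 1 and 2 the dorsal libraries had 309.6 and 470.2 TPM, against 41 and 28.3 TPM laterally and 6.48 and 3.55 TPM ventrally. The ventral level was 2.09% of the dorsal level in clutch 1 and 0.755% in clutch 2, and the libraries of the 3 zones did not overlap. The log2 fold change was 6.28 (SE 0.48, adjusted p = 0.00222 by edgeR's quasi-likelihood test, adjusted over all gene models; SE, standard error). In bulk tissue, fewer expressing cells and less RNA per cell cannot be told apart. A head gene of the otx family, otx2 (Xetrov90021558), stood at 410.1 and 453 TPM dorsally, 77.1 and 56.1 TPM laterally and 14.7 and 5.8 TPM ventrally. Its dorsal values lay close together, while the ventral value of clutch 2 was below that of clutch 1, and the log2 fold change was 5.47 (SE 0.49, adjusted p = 0.00387 by edgeR). The related gene crx (Xetrov90021015) was the most abundant of the organizer genes past the threshold, with 561 and 622 TPM dorsally, 184 and 140.0 TPM laterally and 47.4 and 17.9 TPM ventrally. Its ventral TPM was above that of otx2 in both clutches, and the log2 fold change was 4.30 (SE 0.42, adjusted p = 0.00505 by edgeR). Another member of the family, otx1, had 36.6 and 100.4 TPM dorsally and 16 and 10.1 TPM ventrally and did not pass (adjusted p = 0.111), though it did in DESeq2 with the same block (adjusted p = 0.00182) and in edgeR without dorsal replicate 1 (0.00693).

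Over the list of organizer TFs, 18 of 19 names had a gene model that was tested. Of these, 13 were higher dorsally, none was higher ventrally and 5 did not pass, and the median log2 fold change was 2.90, against -0.01 over all gene models tested. Among all TFs tested, 4.15% were higher dorsally. The list was drawn up with results of these data known, so its count is a description. With each replicate left out in turn the count of 13 became 6 to 14. Expression of sia1 (siamois, Xetrov90028980), a homeobox activator induced by maternal Wnt signalling, was 30.4 and 36 TPM dorsally, 4.66 and 0.89 TPM laterally and 2.13 and 0.53 TPM ventrally. In clutch 2 the lateral and ventral libraries were both under 1 TPM, and the log2 fold change was 4.69 (SE 0.64, adjusted p = 0.0149 by edgeR). The ventral levels of sia1 rest on 19 and 3 counts, so the size of 4.69 is uncertain. Its paralog sia2 was listed at 1.95 and 0.67 TPM dorsally and 0.7 and 0 TPM ventrally and did not pass (adjusted p = 0.561). For hhex (Xetrov90017618), a repressor of the anterior endoderm, the levels were 146 and 192 TPM dorsally, 32.6 and 16.2 TPM laterally and 15.2 and 8.39 TPM ventrally, with a log2 fold change of 4.01 (SE 0.38, adjusted p = 0.00392 by edgeR). The drop of hhex lay mostly between the dorsal and lateral zones, which differed by 3.0 on the log2 scale (adjusted p = 0.0215). Without ventral replicate 2, sia1 and hhex did not pass (adjusted p = 0.156 and 0.0582), and sia1 also failed without ventral replicate 1 (adjusted p = 0.107).

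The remaining homeobox genes of the organizer list were expressed at lower levels or with smaller differences. Expression of dmbx1 (Xetrov90011822), a paired-type gene of the anterior neural region, was 14.8 and 12.9 TPM dorsally, 3.28 and 2.64 TPM laterally and 0.61 and 0.7 TPM ventrally. It was highest in the vegetal mass, at 47.7 and 21.3 TPM. In log2 CPM with a small count added, the clutches of dmbx1 differed by 4.44 and 4.17, with ventral levels that rest on 8 and 6 counts. The fitted log2 fold change of dmbx1, a different measure, was 4.51 (SE 0.39, adjusted p = 6.42e-04 by edgeR). A LIM homeobox gene of the organizer needed for head formation in the mouse, lhx1, was at 169 and 202 TPM dorsally, 69.4 and 59.4 TPM laterally and 42.8 and 28.4 TPM ventrally. Although its groups did not overlap, lhx1 was just inside the threshold with a log2 fold change of 2.49 (SE 0.42, adjusted p = 0.0474) and passed in none of the 4 fits with a replicate left out (adjusted p from 0.0584 without dorsal replicate 1 to 0.587 without ventral replicate 2). Its paralog lhx5 differed less, with 74.3 and 178 TPM dorsally, 63.3 and 126 TPM laterally and 33.7 and 71.4 TPM ventrally and a log2 fold change of 1.31 (adjusted p = 0.00286), and passed in all 4. Both lhx5 and hesx1, a forebrain repressor at 1.94 and 10.2 TPM dorsally and 0.41 and 0.63 TPM ventrally, had higher TPM in clutch 2 than in clutch 1 on both sides. The ventral values of hesx1 rest on 4 and 4 counts, too few to tell the clutches apart. For hesx1 the log2 fold change of 3.31 (adjusted p = 0.0237) was lost without dorsal replicate 2 (adjusted p = 0.230), ventral replicate 1 (0.113) or ventral replicate 2 (0.396). The notochord gene not was broad, at 251 and 231 TPM dorsally, 218 and 166 TPM laterally and 185 and 149 TPM ventrally, and did not pass (log2 fold change 0.61, adjusted p = 0.511, and 0.0287 on the 4 libraries alone).

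**Figure D2:**
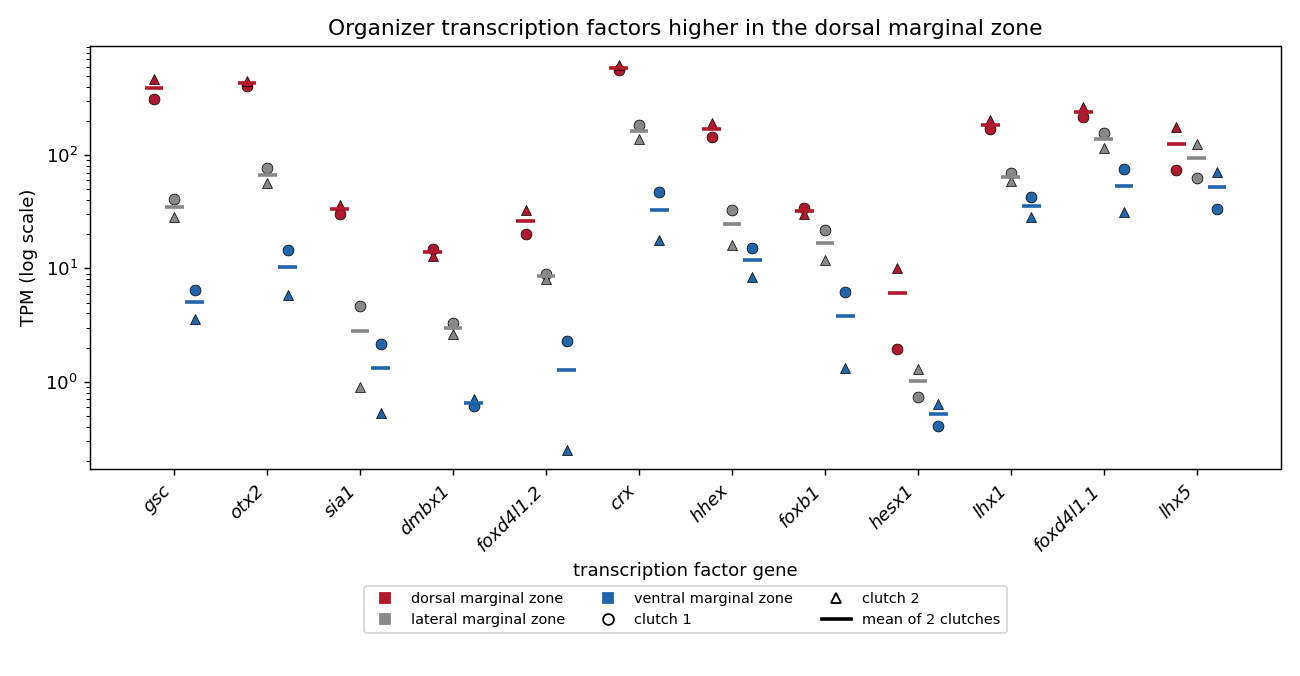
TPM on a log axis of 12 organizer TFs higher in the dorsal marginal zone, in order of log2 fold change. Circles are clutch 1, triangles are clutch 2 and bars are means of 2 clutches for the dorsal (red), lateral (grey) and ventral (blue) zones. In gsc the ventral libraries lie at 6.48 and 3.55 TPM and the dorsal ones at 309.6 and 470.2 TPM.

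Forkhead genes made up another group on the dorsal side. The neighbouring pair foxd4l1.1 and foxd4l1.2, which hold neural ectoderm in an immature state, stood at 216 and 266 TPM and 20.1 and 32.5 TPM dorsally. Laterally they had 158 and 116 TPM and 8.96 and 8.1 TPM, and ventrally 75.3 and 31.6 TPM and 2.28 and 0.25 TPM. The log2 fold changes were 2.34 (SE 0.34, adjusted p = 0.0253) and 4.38 (SE 0.72, adjusted p = 0.0365) by edgeR, and reads shared by the 2 copies may have been divided between them. On the 4 libraries alone neither copy passed in edgeR (adjusted p = 0.590 and 0.399). Expression of foxd3 (Xetrov90011768), a repressor that acts in the organizer and later in the neural crest, was 90.9 and 143 TPM dorsally, 27.2 and 45.8 TPM laterally and 10.6 and 6.98 TPM ventrally. Its log2 fold change was 3.74 (SE 0.39, adjusted p = 0.00426), and it passed in all 4 fits with a replicate left out. The neural gene foxb1 had 34.1 and 30.4 TPM dorsally, 21.7 and 11.9 TPM laterally and 6.24 and 1.31 TPM ventrally, a log2 fold change of 3.37 (adjusted p = 0.0188). Most abundant of the forkhead genes of the list was foxa4, a gene of the notochord, floor plate and dorsal endoderm. It had 1188 and 1193 TPM dorsally, 588 and 401 TPM laterally and 449 and 246 TPM ventrally, and the log2 difference of 1.93 missed the threshold in edgeR (adjusted p = 0.106) and passed it in DESeq2 with the same block (adjusted p = 0.0199). Levels of its paralog foxa2 were low, at 3.04 and 4.64 TPM dorsally and 2.68 and 1.8 TPM ventrally, without a call (adjusted p = 0.436, and 0.04995 without dorsal replicate 1). Without dorsal replicate 2 neither foxd4l1 gene passed (adjusted p = 0.0535 and 0.0883), and without ventral replicate 2 foxd4l1.2 and foxb1 did not (adjusted p = 0.156 and 0.0705).

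Genes of the neural plate, the dorsal ectoderm that the organizer induces, formed the next group. All 15 of the list were tested, and 9 were higher dorsally, none ventrally, and 6 did not pass, with a median log2 fold change of 1.55. Among all TFs tested, 4.15% were higher dorsally, and this list too was drawn up with results of these data known. Of the zinc-finger genes of the zic family, zic1 had 341 and 620.2 TPM dorsally, 223 and 323 TPM laterally and 94.9 and 90.0 TPM ventrally (log2 fold change 2.39, SE 0.23, adjusted p = 0.00259 by edgeR). In the same order were zic4 and zic2, with log2 fold changes of 2.81 and 1.39, while zic5, at 5.42 and 4.15 TPM dorsally and 4.21 and 2.03 TPM ventrally, did not pass (adjusted p = 0.460). The Iroquois homeobox genes irx1 and irx2, which pattern the neural plate, stood at 59.1 and 93.5 TPM and 45.5 and 93 TPM dorsally and 12.2 and 8.14 TPM and 12.3 and 19.6 TPM ventrally. Their log2 fold changes were 2.91 (adjusted p = 0.00286) and 2.15 (adjusted p = 0.00218), and in both the lateral level lay nearer the dorsal one. A further Iroquois gene, irx3, had 76.3 and 38.4 TPM dorsally and 34.8 and 8.71 TPM ventrally and did not pass. Its log2 fold change was 1.55 (adjusted p = 0.166 by edgeR), and DESeq2 with the block called irx3 (adjusted p = 1.12e-04). The pan-neural gene sox2 was 256 and 432 TPM dorsally, 231 and 324 TPM laterally and 149.8 and 172 TPM ventrally, a small log2 fold change of 1.13 (adjusted p = 0.00727). By contrast, sox3 was even along the ring at 760.1 and 1152 TPM dorsally and 773 and 1229 TPM ventrally (log2 fold change 0.01, adjusted p = 0.995), though no test compared sox2 with sox3. The related gene sox11 had 211 and 324 TPM dorsally and 123 and 114 TPM ventrally. Its log2 difference of 1.24 missed the threshold in edgeR (adjusted p = 0.119) and passed it in DESeq2 with the block (adjusted p = 1.12e-05). The animal cap had 282 and 317 TPM of zic1, 59.9 and 83.1 TPM of irx1 and 179 and 204 TPM of sox2, above their ventral levels. Levels of zic2 and foxd3 were lower in the cap than ventrally, and zic2 was highest in the vegetal mass, at 263 and 221 TPM. What part neighbouring tissue has in these dorsal levels was not tested. A zinc-finger effector of hedgehog signalling, gli1.1, had 6.25 and 10.8 TPM dorsally and 1.04 and 0.27 TPM ventrally (log2 fold change 3.65, adjusted p = 0.0237), and gli2 and gli3 lay between 1.28 and 3.13 TPM in all 4 libraries without a call. Without dorsal replicate 2 the calls of gli1.1, zic4 and sox2 were lost (adjusted p from 0.0535 to 0.1003), and without ventral replicate 2 those of zic4 and sox2 (adjusted p = 0.165 and 0.149).

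Several further TFs were higher dorsally. Among them were homeobox genes at low levels that are known from later organs, rax from the eye and nkx2-2 from the ventral neural tube. Both had their highest mean TPM in the vegetal mass, at 2.78 and 1.37 TPM for rax and 7.71 and 4.72 TPM for nkx2-2. No read of nkx2-2 was counted in either ventral library, against 34 and 16 counts (1.76 and 1.52 TPM) in the dorsal ones. Taking 3 counts per library as the limit of detection, it was at least 10.9-fold higher dorsally in clutch 1 and at least 6.50-fold in clutch 2. For rax, 57 and 23 dorsal counts stood against 2 and 2 ventral counts, a ratio of 27.5 in clutch 1 (95% interval 7.27 to 233, exact, counting error only) and 14.0 in clutch 2 (3.46 to 123). The Ets gene etv2, a driver of blood and vessel fate in other vertebrates, was on the dorsal side, at 12.6 and 27.9 TPM dorsally, 1.36 and 3.2 TPM laterally and 1.21 and 1.19 TPM ventrally (log2 fold change 4.02, SE 0.50, adjusted p = 0.00421 by edgeR). A germ-cell and pluripotency regulator of the mouse, prdm14, had 13.8 and 40.1 TPM dorsally, 8.96 and 20.8 TPM laterally and 2.03 and 2.8 TPM ventrally, and the log2 fold change was 3.40 (adjusted p = 0.00298). Among TFs outside the rule for named genes, chosen after their values were seen, tcf7l1, a repressor of Wnt target genes, was abundant on both sides at 399 and 622 TPM dorsally and 159 and 205 TPM ventrally. Its log2 fold change was 1.54 (adjusted p = 0.0358), and it passed in none of the fits with a replicate left out (adjusted p from 0.0532 without dorsal replicate 1 to 0.322 without ventral replicate 2). Without ventral replicate 1, nkx2-2 and rax did not pass (adjusted p = 0.106 and 0.153), and without ventral replicate 2 rax, etv2 and prdm14 did not (adjusted p = 0.0582, 0.0969 and 0.0529).

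On the ventral side msx1 (Xetrov90000496), a homeobox repressor induced by BMP, had the smallest p-value of all TFs. Its level was 3.37 and 4.59 TPM dorsally, 51.2 and 58.9 TPM laterally and 116 and 138 TPM ventrally in clutches 1 and 2. The clutches lay close together in each zone, and the dorsal level was 2.89% and 3.32% of the ventral one. The log2 fold change was -4.95 (SE 0.17, adjusted p = 1.61e-06 by edgeR), and msx1 was 1 of 2 ventral TFs for which the lateral and ventral zones also differed (lateral minus ventral -1.21, adjusted p = 0.0344). The related gene msx2 had 1.9 and 1.52 TPM dorsally and 30.7 and 9.52 TPM ventrally, where clutch 1 was above clutch 2, and the difference of -3.44 missed the threshold (adjusted p = 0.0905). DESeq2 with the block called msx2 (adjusted p = 3.50e-07), as did edgeR on the 4 libraries alone (adjusted p = 0.00590). A posterior homeobox gene, evx1 (Xetrov90015898), was nearly absent dorsally at 0.78 and 0.48 TPM and reached 8.96 and 12.7 TPM laterally and 29.1 and 34.6 TPM ventrally. With a log2 fold change of -5.47 (SE 0.31, adjusted p = 1.12e-04 by edgeR), evx1 had the largest fitted difference among the ventral TFs. The dorsal levels of evx1 rest on 15 and 5 counts, so the size of -5.47 is uncertain. Its order against the other ventral TFs was not tested.

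The ventx genes encode homeobox repressors that act downstream of BMP against organizer genes, and 6 of them lie side by side in the RefSeq gene order with no other gene between neighbours. All 6 were higher ventrally, but to different degrees. Expression of ventx1.1 was 39.3 and 15.3 TPM dorsally, 286 and 364 TPM laterally and 614 and 733 TPM ventrally, and that of ventx1.2 was 25.9 and 12.5, 194 and 194 and 382 and 446 TPM in the same order. Their log2 fold changes were -4.50 (SE 0.45, adjusted p = 0.00561) and -4.33 (SE 0.31, adjusted p = 0.00105) by edgeR. Higher dorsal levels remained for ventx2.1, with 234 and 189 TPM dorsally and 667 and 771 TPM ventrally, and for ventx2.2, with 210.5 and 149 TPM dorsally and 539 and 505 TPM ventrally. Here the log2 fold changes were -1.68 (adjusted p = 0.0202) and -1.47 (adjusted p = 0.00426), smaller in size than those of the ventx1 pair, a difference that was not tested. In the ventx3 pair ventx3.2 went from 5.05 and 0.84 TPM dorsally to 117 and 139 TPM ventrally (log2 fold change -5.15, adjusted p = 0.00405) and ventx3.1 from 5.68 and 3.74 to 53.9 and 137 TPM (log2 fold change -3.99, adjusted p = 0.00550). Reads shared by these related genes may have been divided between them. Only ventx2.1 lost its call when a library was left out, with adjusted p of 0.163 without dorsal replicate 2, 0.110 without ventral replicate 1 and 0.149 without ventral replicate 2.

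**Figure D3:**
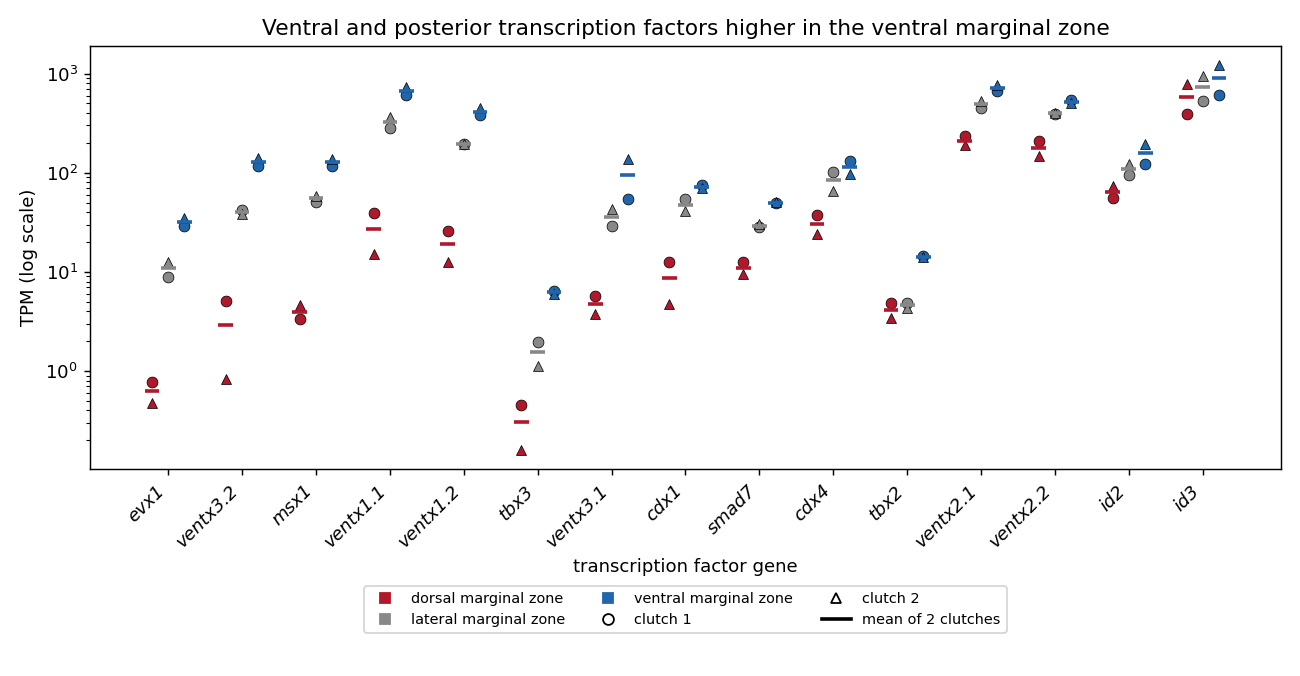
TPM on a log axis of 15 ventral and posterior TFs higher in the ventral marginal zone, in order of log2 fold change. Circles are clutch 1, triangles are clutch 2 and bars are means of 2 clutches for the dorsal (red), lateral (grey) and ventral (blue) zones. The lateral libraries lie between the others for evx1 at 8.96 and 12.7 TPM and close to the dorsal ones for tbx2 at 4.89 and 4.34 TPM.

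Over the list of ventral and BMP-responsive TFs, 17 of 18 were tested, 12 were higher ventrally, none dorsally and 5 did not pass, with a median log2 fold change of -1.72. Among all TFs tested, 3.39% were higher ventrally. Leaving out each replicate changed the 12 to 9 to 11. The T-box repressors tbx3 and tbx2 were both low in the marginal zone. The level of tbx3 was 0.45 and 0.16 TPM dorsally, 1.96 and 1.13 TPM laterally and 6.38 and 6.04 TPM ventrally (log2 fold change -4.23, SE 0.33, adjusted p = 5.80e-04 by edgeR). These dorsal levels rest on 26 and 5 counts. For tbx2 the dorsal and lateral levels were alike, at 4.86 and 3.41 TPM and 4.89 and 4.34 TPM, and the ventral one was 14.3 and 14.1 TPM. The step of tbx2 thus lay between the lateral and ventral zones (-1.62, adjusted p = 0.0233), and dorsal minus ventral was -1.72 (adjusted p = 8.85e-04). An inhibitory Smad that damps BMP and nodal signals, smad7, had 12.6 and 9.47 TPM dorsally and 49 and 50.5 TPM ventrally (log2 fold change -2.11, adjusted p = 0.00680). The other inhibitory Smad, smad6, was level at 34 and 21.7 TPM dorsally and 40.0 and 20.7 TPM ventrally (log2 fold change -0.02, adjusted p = 0.983). Of the Id proteins, which bind and block bHLH factors, id2 stood at 55.6 and 73.3 TPM dorsally and 123 and 194 TPM ventrally (log2 fold change -1.20, adjusted p = 6.23e-04). For id3, with 392 and 783 TPM dorsally and 611 and 1218 TPM ventrally, the groups overlapped, with clutch 2 higher on both sides, and the difference was small in both clutches (-0.61 and -0.53, adjusted p = 0.0465). A low Id gene, id4, leaned dorsally without a call, at 1.7 and 2.06 TPM dorsally and 0.97 and 1.66 TPM ventrally. Its log2 fold change was 0.61 (adjusted p = 0.697 by edgeR). The GATA genes gata2 and gata3, known from ventral ectoderm and blood, did not pass (log2 fold changes 0.67 and -0.77, adjusted p = 0.297 and 0.550). DESeq2 with the block called gata2 higher dorsally (adjusted p = 0.0375), as did edgeR without dorsal replicate 1 (0.0292). Without dorsal replicate 2 or ventral replicate 2 smad7 did not pass (adjusted p = 0.104 and 0.0595), and id3 passed in none of the 4 fits (adjusted p from 0.176 without dorsal replicate 2 to 0.554 without ventral replicate 2).

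Of 10 posterior genes tested, 3 passed, all higher ventrally, and the median log2 fold change was -1.73. Among all TFs tested, 3.39% were higher ventrally. Besides evx1 the 3 posterior genes were cdx1 and cdx4, homeobox activators of Hox genes. Levels of cdx1 were 12.7 and 4.72 TPM dorsally, 54.1 and 40.7 TPM laterally and 74.6 and 70.7 TPM ventrally, and those of cdx4 were 37.3 and 23.9, 102 and 66.2 and 131 and 97.8 TPM. Their log2 fold changes were -3.06 (adjusted p = 0.0435) and -1.87 (adjusted p = 0.0445) by edgeR, and neither passed in any fit with a replicate left out (adjusted p of cdx1 from 0.0747 without dorsal replicate 1 to 0.317 without ventral replicate 2, and of cdx4 from 0.116 without ventral replicate 1 to 0.364 without ventral replicate 2). The third family member, cdx2, had 25.7 and 21.7 TPM dorsally and 109 and 65.5 TPM ventrally and just missed the threshold (log2 fold change -1.75, adjusted p = 0.0661). So did the Hox gene hoxd1, at 32.4 and 8.67 TPM dorsally and 126 and 66.8 TPM ventrally (log2 fold change -2.32, adjusted p = 0.0543). Both passed in DESeq2 with the block (adjusted p = 1.09e-06 for cdx2 and 0.00167 for hoxd1) and in edgeR on the 4 libraries alone (0.00184 and 0.0101), and cdx2 also without TMM (0.0397) and in limma on log2(TPM + 1) (0.0283). The Wnt-responsive zinc-finger gene sp5l was abundant all around the ring, with 1229.8 and 1017 TPM dorsally and 1484 and 1441 TPM ventrally, and did not pass (adjusted p = 0.364).

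In the paraxial mesoderm list, which covers precursors of muscle and somites, 2 of 5 tested TFs were higher ventrally, against 3.39% of all TFs tested. The bHLH gene msgn1, needed for presomitic mesoderm, was 1.54 and 3.11 TPM dorsally, 10.3 and 16.3 TPM laterally and 18.1 and 24 TPM ventrally (log2 fold change -3.18, SE 0.27, adjusted p = 6.42e-04 by edgeR). Levels of mesp2 were low, at 1.13 and 0.35 TPM dorsally and 5.38 and 2.44 TPM ventrally, and its call (log2 fold change -2.30, adjusted p = 0.0461) was lost without any one of the 4 libraries (adjusted p from 0.158 without dorsal replicate 1 to 0.418 without ventral replicate 1). The dorsal levels of mesp2 rest on 12 and 2 counts, the latter under the limit of detection of 3. DESeq2 with the block did not call mesp2 (adjusted p = 0.111). The related gene mespb had 37.7 and 23.5 TPM dorsally and 122 and 105 TPM ventrally and did not pass (log2 fold change -1.82, adjusted p = 0.149 by edgeR). It passed in edgeR on the 4 libraries alone (adjusted p = 3.06e-04) and not in DESeq2 (0.413). For mespa the log2 fold change of -1.30 missed the threshold in edgeR (adjusted p = 0.160) and passed it in DESeq2 (0.0416). The muscle gene myf5 went the other way in sign, with 50.1 and 56.4 TPM dorsally, 51.9 and 53.5 TPM laterally and 23.2 and 6.06 TPM ventrally. Its dorsal and lateral libraries were alike and all above the ventral ones, but the difference of 2.04 missed the threshold (adjusted p = 0.166). It passed in DESeq2 with the block (adjusted p = 4.98e-05) and in edgeR without ventral replicate 1 (0.0303). Among bHLH repressors outside the rule for named genes, chosen after their values were seen, hes6.1 had 84.5 and 101 TPM dorsally and 206 and 226 TPM ventrally (log2 fold change -1.16, adjusted p = 0.00249).

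Of 10 genes of blood and vessel development 7 were tested, of which klf17 and klf2 were higher ventrally and etv2 dorsally. Among all TFs tested, 3.39% were higher ventrally and 4.15% dorsally. The Krüppel-like zinc-finger gene klf17, known in Xenopus from blood and the hatching gland, had 53.2 and 53.6 TPM dorsally, 162 and 212 TPM laterally and 230.1 and 331 TPM ventrally. Its dorsal libraries were almost equal and its log2 fold change was -2.30 (SE 0.15, adjusted p = 1.71e-04 by edgeR). For klf2, known from vessels, the levels were 5.15 and 4.18 TPM dorsally and 14.9 and 10.8 TPM ventrally (log2 fold change -1.40, adjusted p = 0.0358), with no call when any of the 4 libraries was left out (adjusted p from 0.190 without dorsal replicate 1 to 0.256 without ventral replicate 2). Both genes were highest in the animal cap, at 622 and 744 TPM for klf17 and 52.8 and 35.5 TPM for klf2. The blood gene tal1 stayed under 1 TPM in all 4 libraries, and fli1, at 0.57 and 0.93 TPM dorsally and 0.12 and 0 TPM ventrally, did not pass (adjusted p = 0.127, and 0.0169 in DESeq2 with the block). The vessel gene sox7, at 7.41 and 2.95 TPM dorsally and 12.7 and 13.4 TPM ventrally, did not pass (adjusted p = 0.640).

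Markers of the surface ectoderm, the tissue of the animal cap, also differed along the ring. Of 10 tested, 5 were higher ventrally and none dorsally, with a median log2 fold change of -2.0. Among all TFs tested, 3.39% were higher ventrally. Summed over the markers, the level was 418 and 456 TPM dorsally, 822 and 1223 TPM laterally, 1129 and 1772 TPM ventrally and 2136 and 2858 TPM in the animal cap. No marker was at 0 in the dorsal or ventral libraries, and the sum was lowest dorsally and highest ventrally of the 3 zones in each clutch. The AP-2 gene tfap2a, an activator of epidermal and neural crest genes, had 59.4 and 87.5 TPM dorsally, 198 and 364 TPM laterally and 322 and 551 TPM ventrally (log2 fold change -2.48, SE 0.31, adjusted p = 0.0136 by edgeR). The other 4 were tfap2c (-1.59, adjusted p = 0.0381), the epidermal homeobox genes dlx5 (-2.71, 0.0365) and dlx3 (-2.20, 0.0209) and the epidermal p53 relative tp63 (-2.23, 0.0107). All 5 missed the threshold in each fit with a replicate left out, with adjusted p from 0.0544 for dlx3 without dorsal replicate 2 to 0.355 for tfap2c without dorsal replicate 2. What part ectoderm cut along with the marginal zone has in the ventral levels of these genes, of klf17, klf2 or of the ventral list was not tested. Of the 15 ventral and posterior list members that were higher ventrally, 13 were lower in the animal cap than in the ventral marginal zone in both clutches, with 20.9 and 30.6 TPM of msx1 and 0.74 and 0.76 TPM of evx1 in the cap. The other 2, id2 at 136 and 198 TPM and id3 at 952 and 1430.4 TPM, were higher in the cap in both.

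Of 9 endoderm markers tested, 1 was higher dorsally and none ventrally, against 4.15% and 3.39% of all TFs tested. Their median log2 fold change was 0.39. The summed level of the markers was 2477 and 1713 TPM dorsally, 2284 and 1464 TPM ventrally and 8123 and 8820 TPM in the vegetal mass. The marker that passed, gata6, stood at 118 and 121 TPM dorsally, 73.5 and 66 TPM laterally and 83.8 and 71.3 TPM ventrally (log2 fold change 0.70, SE 0.11, adjusted p = 0.0121 by edgeR). Its call held without dorsal replicate 1 alone, and was lost without dorsal replicate 2 (adjusted p = 0.135), ventral replicate 1 (0.0723) or ventral replicate 2 (0.268). The endoderm genes sox17a, at 260.2 and 194 TPM dorsally and 193 and 116 TPM ventrally, and mixer, at 1747 and 1128 and 1678 and 1049.5 TPM, did not pass (adjusted p = 0.615 and 0.930), and mixer alone made up most of the sum on each side. Levels of gata4 were 131 and 141 TPM dorsally, 54.3 and 43.3 TPM laterally and 50.7 and 44.8 TPM ventrally. Its groups did not overlap and its log2 difference of 1.60 exceeded that of gata6 in size, yet it did not pass (SE 0.38, adjusted p = 0.161). On the 4 libraries alone, which leave 1 degree of freedom to estimate the spread, gata4 and sox17a passed in edgeR (adjusted p = 3.06e-04 and 0.0343).

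The lateral marginal zone took an intermediate place for most of the 69 TFs. In both clutches its level lay between the dorsal and ventral ones for 34 of 38 dorsal and 29 of 31 ventral TFs, where 13.3% of all gene models tested had such an order. Set on a log2 scale from 0 at the ventral to 1 at the dorsal level, the lateral zone had a median place of 0.457 for the dorsal TFs and 0.286 for the ventral TFs. For 22 of the 38 dorsal and 29 of the 31 ventral TFs it lay nearer the ventral level. The dorsal TFs differed widely, from genes such as tfap2e (0.167) and sia1 (0.172), whose lateral level was close to the ventral one, to genes such as prdm14 (0.744), foxb1 (0.697) and irx2 (0.692), whose lateral level was closer to the dorsal one. In gata6 the lateral level was the lowest of the 3 in both clutches. The ventral TFs kept to a narrower range, from LOC100495414, a bHLH gene known by its locus number alone (0.134), to id3 (0.515), with tbx2 (0.938) apart from them. These places use the same libraries as the call and are given as a description.

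When the dorsal and lateral zones were compared directly, 0.547% of all gene models tested passed, 0.394% being higher dorsally and 0.153% laterally. Of the 38 dorsal TFs 12 passed, with log2 fold changes from 0.78 for prdm1 and 0.85 for gata6 to 3.83 for sia1 (adjusted p = 0.0402). Among the 12 was nkx2-2, for which no fold is given, at 1.76 and 1.52 TPM dorsally and 0.06 and 0 TPM laterally. For gsc the dorsal zone exceeded the lateral by 3.56 (adjusted p = 0.0199) and the lateral the ventral by 2.73, which did not pass (adjusted p = 0.346). Of the 31 ventral TFs 12 were higher laterally than dorsally, among them msx1 (-3.73, adjusted p = 1.79e-05), evx1 (-3.92, adjusted p = 0.00197) and ventx1.2 (-3.24, adjusted p = 0.00750). Between the lateral and ventral zones 4 gene models passed in all (0.0254%), which include msx1 and tbx2 and none of the dorsal TFs. These comparisons share the dorsal, lateral and ventral libraries.

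Many of the 69 TFs were not at their highest in the marginal zone. By mean TPM over the 5 regions, 20 of the 38 dorsal TFs were highest in the dorsal marginal zone, 13 in the vegetal mass and 5 in the animal cap. Those highest in the vegetal mass include hhex at 394 and 238 TPM and sia1 at 59.5 and 39.4 TPM there. Of the same 38, those highest in the animal cap are lhx5 at 229.7 and 358 TPM, irx2 at 101 and 142 TPM, prdm14, pbx2 and hesx1. On the ventral side 15 of 31 TFs were highest in the ventral marginal zone, 9 in the animal cap and 7 in the vegetal mass. Here msx1, evx1, cdx1, cdx4, msgn1 and the ventx1 and ventx2 genes peaked in the ventral marginal zone, whereas tbx2, tbx3 and both ventx3 genes peaked in the vegetal mass, at 246 and 352 TPM for ventx3.2. The animal cap had no more than 2.03 and 0.87 TPM of gsc and 3.25 and 0.55 TPM of lhx1 in clutches 1 and 2, while the vegetal mass had 159.5 and 262 and 141 and 151 TPM.

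**Figure D4:**
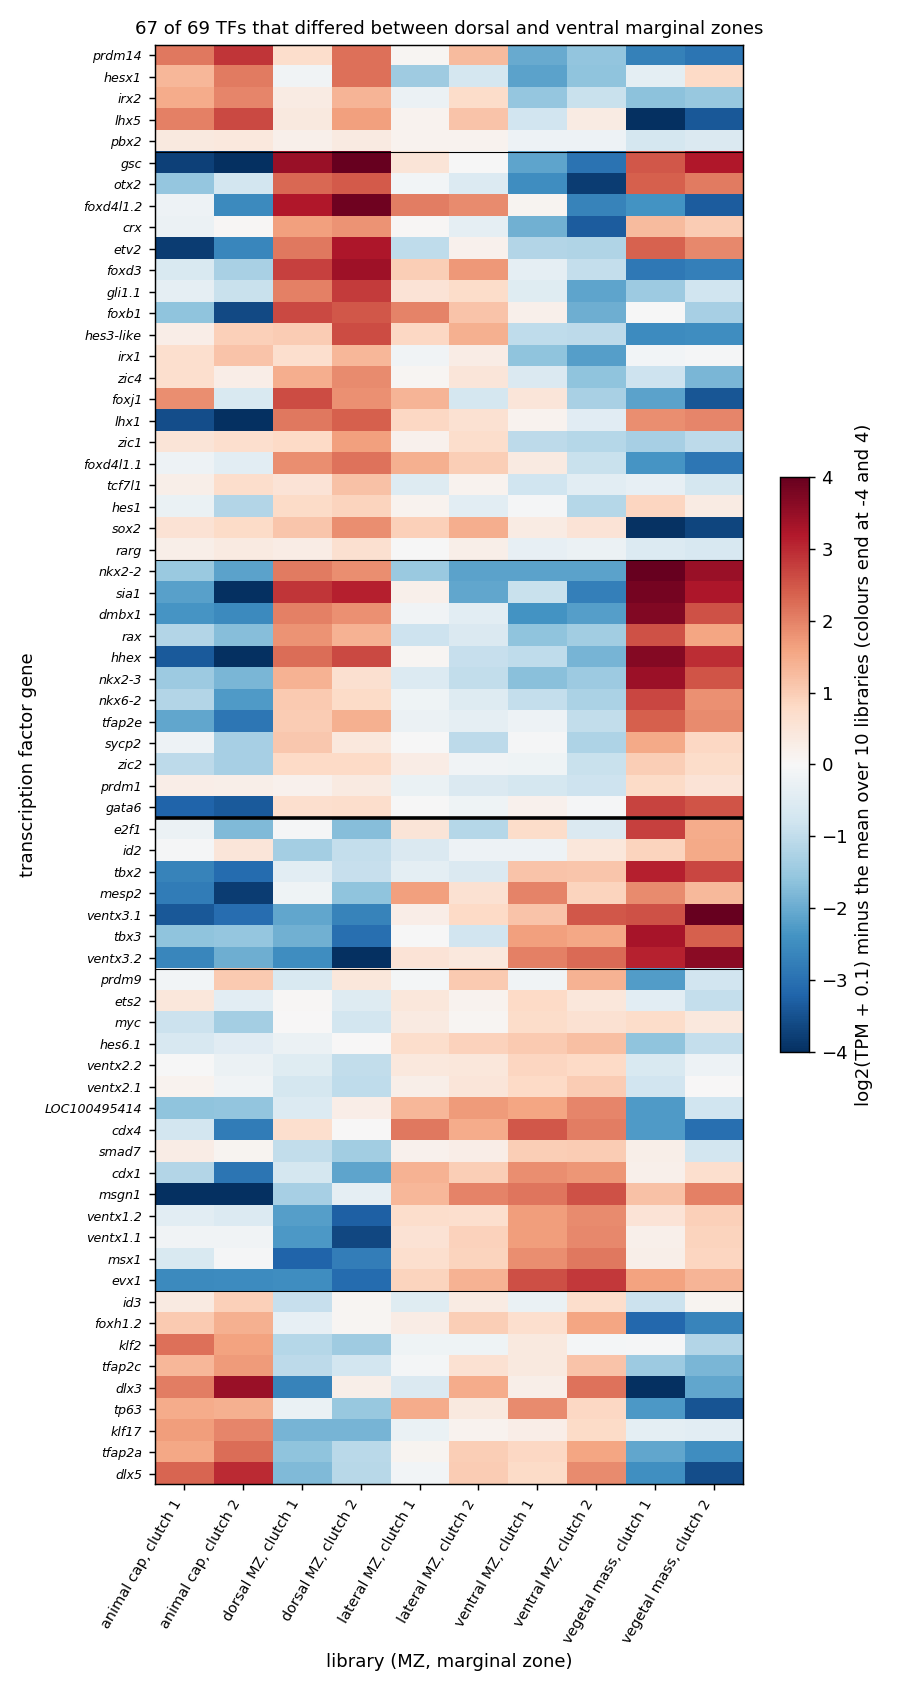
Levels of 67 of the 69 TFs (rows) in the 10 region libraries (columns), as log2(TPM + 0.1) minus the mean of each TF over the 10 libraries, with colours that end at -4 and 4. Dorsal TFs are above and ventral TFs below the thick line, and thin lines divide them by the region of their highest mean TPM. From top to bottom the blocks hold 5 dorsal TFs highest in the animal cap, 19 in the dorsal marginal zone and 12 in the vegetal mass, then 7 ventral TFs highest in the vegetal mass, 15 in the ventral marginal zone and 9 in the animal cap.

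The difference between the sides was often larger in 1 clutch. It is taken here from the log2 CPM of each clutch, with a small count added, and not from edgeR's fit. For 35 of the 38 dorsal TFs the dorsal minus ventral log2 difference was larger in clutch 2, with medians of 2.07 in clutch 1 and 3.22 in clutch 2, and the exceptions are rax, dmbx1 and nkx2-3. Among the ventral TFs this was so for 24 of 31, with median absolute differences of 2.08 and 1.93, and over all gene models tested for 70.5%. The widest gap was in foxd4l1.2, which differed by 3.12 in clutch 1 and 6.71 in clutch 2, with ventral levels of 2.28 and 0.25 TPM. These ventral levels rest on 28 and 2 counts, the latter under the limit of detection of 3, so the size of 6.71 is uncertain. On the ventral side ventx3.2 changed most, from -4.48 to -7.13, with dorsal levels of 5.05 and 0.84 TPM. These dorsal levels rest on 66 and 6 counts, so the size of -7.13 is uncertain too. In gsc and otx2 the larger difference of clutch 2 went with both a lower ventral and a higher dorsal TPM than in clutch 1. The dorsal and ventral libraries of clutch 2 were also the shallower ones, and depth and clutch cannot be told apart here.

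**Figure D5:**
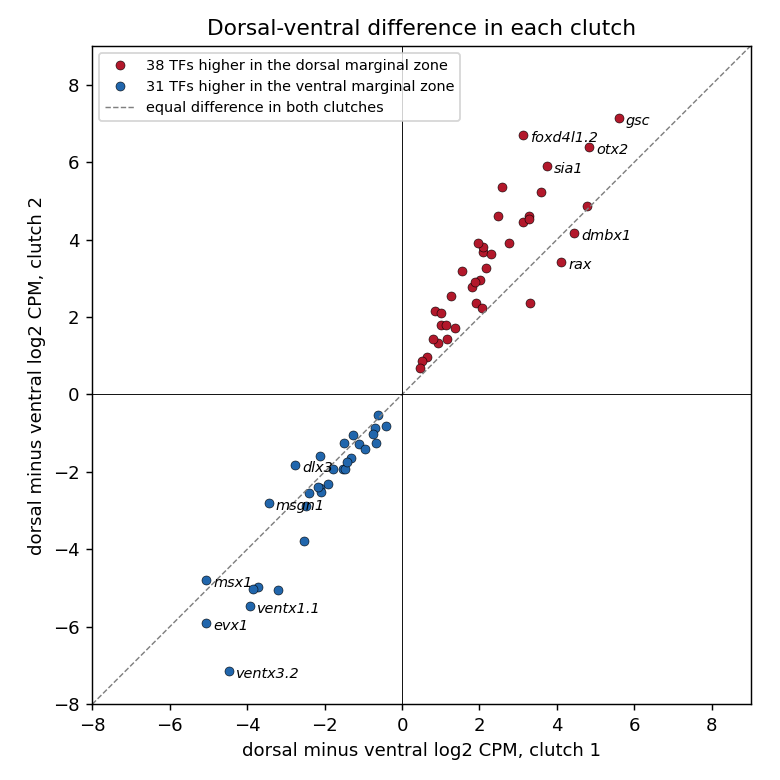
Dorsal minus ventral difference in log2 CPM in clutch 1 (x axis) and clutch 2 (y axis) for the 69 TFs. Red points are 38 TFs higher dorsally, blue points are 31 TFs higher ventrally and the dashed line marks equal differences. All points lie to the upper right or lower left of the origin, and 35 red points lie above the line.

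The kinds of DNA-binding domain were counted on each side, and no test compared the sides. Homeobox proteins made up 17 of the 38 dorsal (44.7%) and 12 of the 31 ventral TFs (38.7%), against 14.2% of the TFs tested. Forkhead genes were 5 on the dorsal side (foxd3, foxb1, foxj1 and both foxd4l1 genes) and 1, foxh1.2, on the ventral side. That is 13.2% of the dorsal and 3.23% of the ventral TFs, against 4.15% of the TFs tested. Proteins with a helix-loop-helix (HLH) domain numbered 2 dorsally, hes1 and hes3-like, and 7 ventrally, namely msgn1, mesp2, id2, id3, hes6.1, myc and LOC100495414. The HLH share was 5.26% of the dorsal and 22.6% of the ventral TFs, against 7.76% of the TFs tested. It includes the Id proteins, which block bHLH factors. Zinc-finger genes of the C2H2 type, the largest class with 280 tested (30.6% of the TFs tested), gave 7 dorsal (18.4%) and 3 ventral TFs (9.68%). None of the 50 bZIP genes tested (5.46%) was called. In the RefSeq gene order of another assembly, where 62 of the 69 names were found, foxd4l1.1 and foxd4l1.2 are adjacent, as are irx1 and irx2, and each pair was higher on the dorsal side. The dorsal gene lhx5 and the ventral gene tbx3 have 2 genes between them.

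Gene models outside the TF catalogue were counted, since the files give them no names. Of 14812 tested, 160 differed, 123 higher dorsally and 37 higher ventrally, which is 1.08% against 7.54% of the TFs. All 160 had the same sign in both clutches, which the call on the same libraries favours. Their median absolute log2 fold change was 2.31 on the dorsal and 1.28 on the ventral side, and 7 of the dorsal ones had at most 3 counts in each ventral library. The lateral level lay between the other zones in both clutches for 103 of 123 and 32 of 37. By mean TPM, 61 of the dorsal gene models were highest in the dorsal marginal zone, 54 in the vegetal mass and 8 in the animal cap, and of the ventral ones 16 were highest in the ventral marginal zone, 13 in the animal cap, 6 in the vegetal mass and 2 laterally. Without the block 1 gene model passed. The dorsal and ventral counts were 146 and 26 without dorsal replicate 1, 47 and 11 without dorsal replicate 2, 50 and 15 without ventral replicate 1, and 31 and 8 without ventral replicate 2.

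Of those with the largest differences, Xetrov90012767 had 78.9 and 259 TPM dorsally, 4.52 and 6.32 TPM laterally and 0.91 and 0 TPM ventrally (log2 fold change 8.07, SE 0.66, adjusted p = 0.00249 by edgeR). Its ventral libraries held 11 and 0 counts, so the size of 8.07 is uncertain. The gene model Xetrov90009490 had 284 and 315 counts dorsally and 2 and 0 ventrally. On the ventral side Xetrov90008197 went from 0.97 and 1.31 TPM dorsally through 13.5 and 49.7 TPM laterally to 60.8 and 240 TPM ventrally (log2 fold change -6.68, SE 0.49, adjusted p = 0.00121), a larger difference than that of evx1. The next, Xetrov90007482, had 30.5 and 9.44 TPM dorsally and 341 and 254 TPM ventrally (log2 fold change -3.88, adjusted p = 0.0381).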

How the data were processed

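Poly(A)+ RNA of 5 hand-dissected regions and of whole embryos was sequenced by the authors from non-stranded libraries in 2 clutches, giving 12 libraries. They quantified reads with RSEM 1.2.12 on the v9.0 assembly and deposited an expected count per gene model and library, which is not normalized, and a TPM, which corrects it for transcript length and depth. RSEM divides reads that match several genes, and without strand overlapping genes cannot be separated. Total expected counts were 14634582 to 29166548. No column was left without a sample.

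Expected counts were rounded and tested with edgeR 4.0.16 in R 4.3.3 (filterByExpr by region, TMM, robust glmQLFit, glmQLFTest), on the 10 region libraries with region and clutch as terms. Benjamini-Hochberg adjustment ran over the 15727 gene models tested, and 0.05 was the threshold. The study's EBSeq was not used here. Enriched TFs also had to differ 2-fold or more in TPM and reach a mean of 1 TPM in the higher region. A total of 3 counts per library was taken as the limit of detection, and count intervals are exact 95% intervals that cover counting error only. TF names came from the study's TF catalogue (1240 TFs, 1197 with a gene model). Names of secreted factors are not paired with gene models in the tables used here, so those lists were not analysed here.

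The replicate number pairs the libraries, since the study used a different clutch for each round of dissection. Deviations from the region means had a correlation over 15727 genes of 0.636 to 0.803 between libraries of 1 clutch over the 10 pairs of regions (median 0.73), and of 0.724 between dorsal and ventral. The paper states that the libraries carried bar-coded adaptors, and the sample labels used here do not list the bar codes.

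The members and lists were chosen with earlier results of these data known. Named TFs are the list members and in each direction the 15 that changed most on the log2 scale, among those past the threshold with 1 TPM or more on average and the same sign in both clutches. The remaining called TFs that are named, such as tfap2e, prdm1, rarg, pbx2, foxj1, hes1, hes6.1, myc, ets2 and prdm9, were chosen after their values were seen. Alternatives were no block, DESeq2 1.42.0, library size without TMM, no filter, the 4 libraries alone, limma 3.58.1 on log2(TPM + pseudocount) with a pseudocount of 1 or 0.1, other limits on ratio and TPM, and each dorsal and ventral replicate left out, where the remaining library is assumed to vary like the other regions. With the block, the 4 libraries alone leave 1 degree of freedom to estimate the spread. The tests were tried on simulated counts. Python 3.11.15, pandas 2.3.3 and matplotlib 3.10.9 were used for tables and figures. Of the called TFs, 2 count in the totals but are not reported here by name or shown in the plots of named genes.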

Additional observations from a re-analysis of the deposited data

Results flagged for a closer look

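The dorsal minus ventral log2 difference of smad6 was -0.20 in clutch 1 and 0.18 in clutch 2, that of tal1 was -0.58 and 0.36, and that of gli3 was -0.14 and 0.52. They are listed since the clutches moved in opposite directions. The difference between the clutches was not tested, and none of these TFs passed the comparison of the 2 sides.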

How the results depend on the processing

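The 69 called TFs had the same sign under every alternative run, each of which used the same libraries or a part of them. The calls depended most on the clutch in the model. Without the replicate block, edgeR called 4 TFs higher dorsally (gsc, otx2, crx and dmbx1) and 2 ventrally (evx1 and ventx1.2), and the same 4 and 2 were enriched. Of the other gene models 1 was then higher dorsally and 0 ventrally, where 77 had an unadjusted p under 0.05 and DESeq2 with the block called 94. The organizer list gave 4 and the ventral list 1 without the block. With the block, DESeq2 called 97 TFs (55 dorsally and 42 ventrally), which are 68 of the 69 and 29 others, 14 of them members of the lists. The 4 libraries alone added 23 TFs, leaving out dorsal replicate 1 added 10, and each other alternative added at most 4. Of the 69, library size without TMM called 67, limma on log2(TPM + 1) 66, limma on log2(TPM + 0.1) 60, no filter 53 and the 4 libraries alone 43. DESeq2 gave 223 dorsal and 94 ventral non-TF gene models, limma on log2(TPM + 0.1) gave 75 dorsal ones, and the 4 libraries alone gave 71 ventral ones. The 4 libraries alone gave 20 dorsally enriched TFs and 6 of the organizer list, and testing without the filter gave 8 of that list. With a replicate left out, dorsal TFs numbered 14 to 46, ventral TFs 13 to 17, dorsal and ventral non-TF gene models 31 to 146 and 8 to 26, enriched TFs 14 to 39 and 13 to 16, the organizer list 6 to 14 and the ventral list 9 to 11. The other limits on ratio and TPM left the enriched TFs at 37 and 31 dorsally (ratio 1.5, then 5 TPM) and 31 and 24 ventrally. Signs turned for TFs without a call. The log2 fold change of smad6 ranged from -0.17 to 0.14, of tal1 from -0.63 to 0.37, of gli3 from -0.047 to 0.41 and of sox3 from -0.14 to 0.16 with a replicate left out. It was 0.064 for tal1 without the block, and for sox3 -0.058 without TMM and -0.0586 in both limma fits. Without TMM the median of all gene models was -0.08. The cause was not tested. With 2 clutches of pooled explants, and 3 counts of a median gene at 0.101 to 0.18 TPM, differences of low genes are limited by counting error.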

Other observations

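Among the called TFs outside the lists, chosen after their values were seen, several dorsal ones were higher in the vegetal mass than anywhere else. The homeobox gene nkx2-3, known from the pharyngeal endoderm and heart, had 3.34 and 1.94 TPM dorsally, 0.31 and 0.38 TPM ventrally and 14.1 and 7.4 TPM in the vegetal mass, with a dorsal minus ventral log2 fold change of 3.02 (adjusted p = 0.00249 in edgeR's quasi-likelihood test). Levels of nkx6-2 were 3.32 and 2.75, 0.77 and 0.59 and 10.6 and 5.81 TPM in the same order (log2 fold change 2.23, adjusted p = 0.0149), and those of tfap2e were 12.8 and 17, 5.45 and 3.1 and 33.2 and 23.5 TPM (1.89, 0.0175). The AP-2 gene tfap2e thus lay on the other side from tfap2a and tfap2c. A zinc-finger repressor of the organizer and anterior endoderm, prdm1, stood at 115 and 131 TPM dorsally and 61.5 and 56.7 TPM ventrally (1.14, adjusted p = 0.00249), and sycp2, named for a protein of meiotic chromosomes, at 47.4 and 30.5 and 22 and 9.54 TPM (1.44, adjusted p = 0.00286). The forkhead gene foxj1, which directs the making of motile cilia, had 59.2 and 34.7 TPM dorsally, 24.7 and 5.94 TPM laterally and 13.5 and 3.87 TPM ventrally (2.76, adjusted p = 0.0188), and clutch 1 was above clutch 2 in each zone.

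Among bHLH genes, expression of hes1 was 30.1 and 32.8 TPM dorsally and 17.1 and 7.95 TPM ventrally (log2 fold change 1.47, adjusted p = 0.0365) and that of hes3-like 3.28 and 9.98 and 0.72 and 0.7 TPM (3.07, 0.00917), while hes6.1 was higher ventrally. The retinoic acid receptor gene rarg and the Hox cofactor gene pbx2 differed little, with log2 fold changes of 0.81 (adjusted p = 0.0149) and 0.57 (adjusted p = 0.0160). On the ventral side foxh1.2, a relative of the nodal effector foxh1, had 57.3 and 74.6 TPM dorsally and 114 and 216 TPM ventrally (-1.19, adjusted p = 0.00463). The growth regulator myc stood at 67.1 and 39.2 and 109 and 101 TPM (-0.95, adjusted p = 0.0132), and the Ets gene ets2 at 216 and 146 and 359 and 286 TPM (-0.78, adjusted p = 0.0240). Of the TFs in these paragraphs, only hes6.1 passed in all 4 fits with a replicate left out. Without ventral replicate 2 nkx2-3 and hes6.1 alone passed, with adjusted p of the others from 0.0502 for sycp2 to 0.363 for hes1.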
